A study of Mus musculus with 112 samples.

Results

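The solute carrier 25 (SLC25) family consists of related transport proteins, most of which lie in the inner mitochondrial membrane. The genes described here are all those whose symbol is Slc25a followed by a number and that had a probe set naming no other gene on the Affymetrix mouse Gene 1.0 ST array. There were 46 of them among the 19938 genes tested. Where a gene had several probe sets, the brightest was used, which applied to 3 members (Slc25a5, Slc25a36 and Slc25a40). Of the 46, 35 had a mean signal above that of the median probe set (6.77 on the log2 scale) and 11, called dim here, did not. The dim members ranged from Slc25a54 (mean signal 3.86) to Slc25a29 (6.73), which was just under the median.

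Epididymal white adipose tissue (WAT) was taken from 112 male mice, 1 array per mouse, in 14 groups of 8: a control and a calorie-restricted (CR) group in each of BALB/cJ, DBA/2J, CBA/J, C57BL/6J, 129S1/SvImJ, C3H/HeJ and the hybrid B6C3F1/J (GEO spells C57BL6/J and Balbc/J). All mice came from 1 vendor, were housed singly, ate a purified diet, were assigned to control or CR feeding at 8 weeks of age and were killed at 22 weeks after an overnight fast. The allotments were not alike: CR food was cut further midway for 129S1/SvImJ and C57BL/6J, while BALB/cJ controls were given more food and BALB/cJ CR mice received what control mice of the other strains ate. Values are log2 signals after robust multi-array averaging (RMA), so a difference of 1 is a doubling. Apart from the division into brighter and dim members, genes are compared by their changes and not by their signal levels.

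Adipocyte markers were bright in every array (mean of 9 genes between 11.54 and 12.84). Markers of the epididymis, which lies beside this fat pad, exceeded the median by more than 1 in 9 arrays: 2 C57BL/6J CR, 3 CBA/J CR, 2 DBA/2J CR and 2 DBA/2J control. Averaged over the strains, the 14 macrophage markers were lower under CR, 13 of 14 past the test (background 22.0% of all genes lower). Their mean level was 7.92 to 9.80 in CR mice and 8.37 to 10.83 in control mice. The strains were not alike: in BALB/cJ their differences ran from -0.24 (Gpnmb) to 0.10 (Adgre1), and in CBA/J from -3.33 (Gpnmb) to -0.14 (Cd163). The part that these cell types have in the differences below was not tested, and in bulk tissue fewer cells of a type cannot be told apart from less RNA per cell. One BALB/cJ control mouse, replicate 3, had the highest signal of its group for 23 of the 46 members (50%) and for 21.2% of all genes. The mean level of the brown and beige fat markers was 8.70 in this mouse and 6.73 to 7.07 in the other 7 BALB/cJ controls, and the part of these markers in its signals was not tested. DBA/2J control replicate 2 had the highest such level of all arrays, 9.43, where the median of its group was 7.42. That DBA/2J mouse was left out only together with other arrays.

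Carriers of this family move metabolites that the membrane would otherwise hold back. In the fat cell, citrate made in the mitochondrion leaves through the citrate carrier Slc25a1 and is split by Acly into acetyl-CoA, the starting material of fatty acids, and oxaloacetate, whose reduction to malate and conversion by Me1 gives NADPH. The dicarboxylate carrier Slc25a10 exchanges malate or succinate for phosphate, and the oxoglutarate carrier Slc25a11 exchanges oxoglutarate for malate. Phosphate enters through Slc25a3 and ADP is exchanged for ATP by Slc25a4 and Slc25a5, so that these carriers feed ATP synthase. Fatty acids bound to carnitine enter through Slc25a20. Amino acids, coenzymes and iron have carriers of their own.

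The promoters of the 3 carriers that lead the citrate and dicarboxylate group are printed first, because all 3 rose under CR. Each run is the 250 bases before the RefSeq start of transcription (build GRCm38.p6), read 5′ to 3′ along the gene, with capitals where a script found CACGTG (an E-box), CCAAT or GGGCGG (a GC box) on either strand.
Slc25a1, chr16:17928220-17928469, minus strand: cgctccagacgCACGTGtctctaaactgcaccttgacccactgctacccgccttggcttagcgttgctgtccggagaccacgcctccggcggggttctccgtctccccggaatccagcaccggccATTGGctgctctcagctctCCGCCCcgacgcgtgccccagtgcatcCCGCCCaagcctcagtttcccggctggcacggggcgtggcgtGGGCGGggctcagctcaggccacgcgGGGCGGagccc
Slc25a10, chr11:120491587-120491836, plus strand: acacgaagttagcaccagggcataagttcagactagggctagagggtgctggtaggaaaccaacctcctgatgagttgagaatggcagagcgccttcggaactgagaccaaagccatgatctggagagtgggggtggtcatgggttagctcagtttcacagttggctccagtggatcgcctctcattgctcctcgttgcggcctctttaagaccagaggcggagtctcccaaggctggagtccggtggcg
Slc25a11, chr11:70647040-70647289, minus strand: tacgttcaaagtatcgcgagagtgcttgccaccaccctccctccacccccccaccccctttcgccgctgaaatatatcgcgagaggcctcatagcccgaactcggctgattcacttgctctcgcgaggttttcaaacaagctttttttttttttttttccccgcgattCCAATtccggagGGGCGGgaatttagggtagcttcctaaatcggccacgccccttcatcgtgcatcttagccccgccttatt
Slc25a1 had 1 CACGTG, 1 CCAAT and 4 GGGCGG. Slc25a11 had 1 CCAAT and 1 GGGCGG, and Slc25a10 had none of these letters in its window. Over all 32851 windows of this length CACGTG stood in 6.02%, CCAAT in 33.8% and GGGCGG in 32.7%. Of the 46 windows of the 36 members in the table, 17.4%, 45.7% and 69.6% held them. The sterol element TCACCCCAC was in 0.496% of all windows and in no member window, and TCAAGGTCA in 0.387% and none. A match is only a description of the letters.

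Averaged over the 7 strains, 23 of the 46 members rose under CR (50%, where 21.9% of all genes rose) and 11 fell (23.9%, where 22.0% of all genes fell), at an adjusted p under 0.05 in limma with Benjamini-Hochberg adjustment over all genes. The other 12 did not pass. The median change of the members was 0.07, and that of all genes 0.01. Among the 35 members brighter than the median probe set, 22 rose and 9 fell, where 33.1% of the brighter genes rose and 32.7% fell. The largest rises, of 2.07-, 2.04- and 1.99-fold, were in Slc25a35, Slc25a10 and Slc25a1, and the largest fall was in the dim member Slc25a13. For 28 members the difference had the same sign in all 7 strains (60.9%, where 23.3% of all genes did): 21 upwards and 7 downwards.

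**Figure D1:**
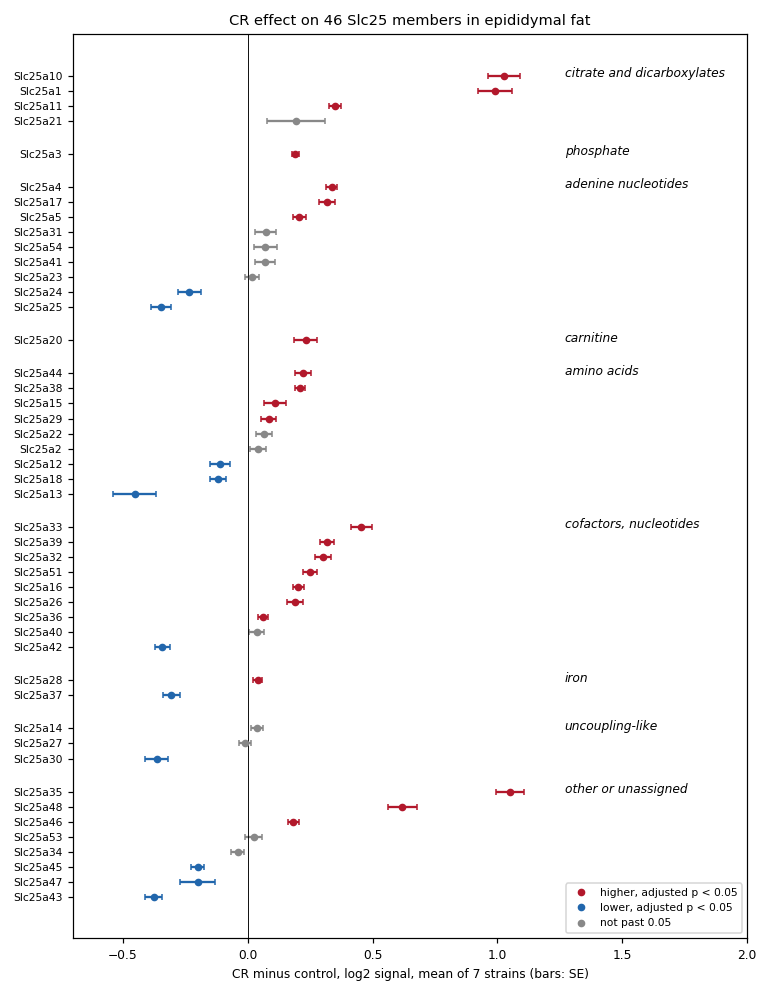
The CR minus control difference of each of the 46 members on the x axis (log2 signal, mean of 7 strains, bars show the SE), grouped by substrate on the y axis. Red points rose, blue points fell and grey points did not pass; the 3 points near 1 are Slc25a10, Slc25a1 and Slc25a35.

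Within a strain, a member was called at an unadjusted p under 0.01 in limma over its 16 arrays. In 129S1/SvImJ 20 members were higher and 8 lower (background 14.4% of all genes higher and 14.2% lower). B6C3F1/J had 20 higher and 6 lower (16.5% and 14.4%), CBA/J 19 and 6 (8.52% and 12.3%), C3H/HeJ 13 and 5 (9.25% and 7.43%) and C57BL/6J 11 and 5 (9.8% and 7.82%). DBA/2J had 10 higher and 1 lower (3.15% and 2.88%), and BALB/cJ 3 and 2 (0.622% and 0.958%). No member was called in opposite directions in different strains. After adjustment over all genes, 29 members passed in 129S1/SvImJ (32.2% of all genes), 26 in B6C3F1/J (34.2%), 25 in CBA/J (21.2%), 18 in C3H/HeJ (15.6%), 16 in C57BL/6J (16.7%), 1 in DBA/2J (0.888%) and none in BALB/cJ (0.0%), where 13 members and 7.52% of all genes were at an unadjusted p under 0.05. All 8 CR mice exceeded all 8 controls for 13 members in B6C3F1/J (6.95% of all genes), 11 in 129S1/SvImJ (3.42%), 6 in CBA/J (1.39%), 4 in C57BL/6J (2.63%), 3 in C3H/HeJ (1.85%) and none in DBA/2J (0.0702%) or BALB/cJ (0.00502%). All 8 lay below all controls for 5 members in 129S1/SvImJ (4.31%), 2 in B6C3F1/J (5.69%), 1 in CBA/J (5.69%), 1 in C3H/HeJ (0.492%) and none in C57BL/6J (1.87%), DBA/2J (0.135%) or BALB/cJ (0.0%). Arrays bear on these counts. Without its 2 arrays with epididymis markers C57BL/6J had 18 members higher instead of 11. Without the 22 arrays that stand apart by those markers or by a principal component DBA/2J had 2 instead of 10. Without control replicate 3 BALB/cJ had 10 instead of 3. That mouse was the highest control for 23 members, and leaving it out can only raise their differences. At an unadjusted p under 0.01, 8 members were called in at least 6 strains (17.4%, background 2.37%): Slc25a1, Slc25a10, Slc25a11, Slc25a3, Slc25a4, Slc25a33, Slc25a35 and Slc25a42. Without the 22 arrays that stand apart, which leaves DBA/2J control and CBA/J CR with 2 mice each, only Slc25a10 and Slc25a48 were (background 0.512%). Without the 9 arrays with epididymis markers 8 members were (background 2.76%), Slc25a30 and Slc25a48 in place of Slc25a33 and Slc25a42.

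**Figure D2:**
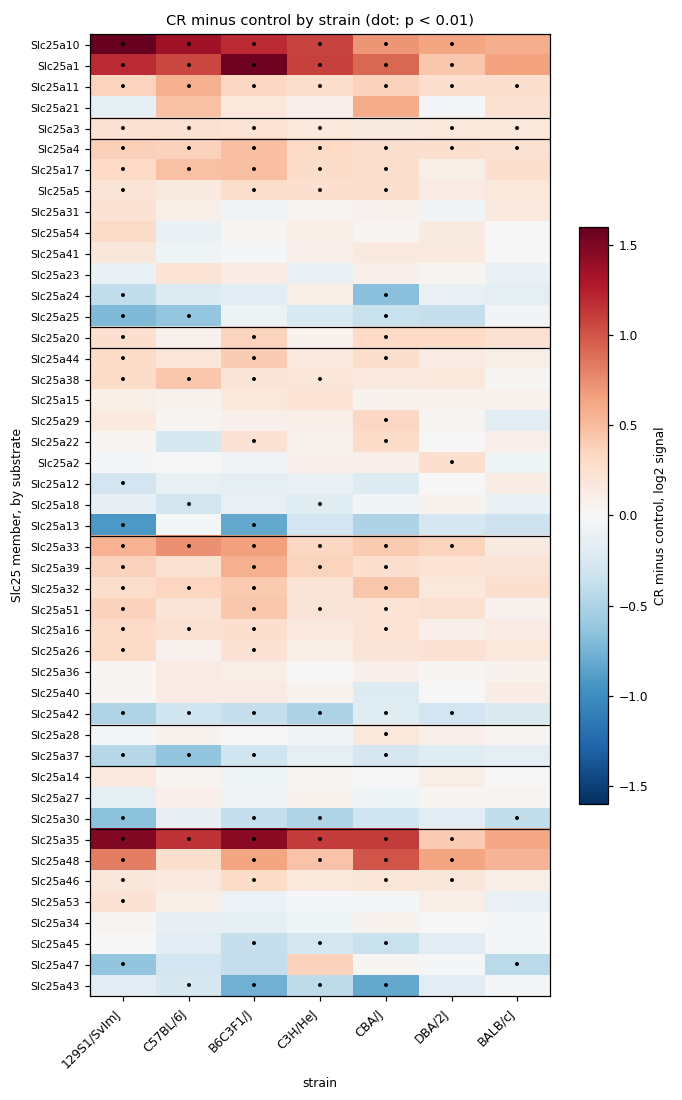
The CR minus control difference (colour, log2 signal) of each member (rows, grouped by substrate and divided by lines) in each strain (columns), with a dot where the unadjusted p was under 0.01. Slc25a10, Slc25a1 and Slc25a35 are the darkest rows, and the BALB/cJ column holds 5 dots.

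Of the 4 citrate and dicarboxylate carriers 3 rose and none fell, with a median change of 0.67. The background was 21.9% and 22.0% of all genes, and 33.1% and 32.7% of the brighter genes. Slc25a1, the citrate carrier, was higher by 0.99 (SE 0.07, adjusted p = 2.78e-24) and its signal was higher in all 7 strains. Control 129S1/SvImJ mice had Slc25a1 signals of 11.10 to 11.61 (median 11.20) and CR mice 12.04 to 12.79 (median 12.50). C57BL/6J controls lay at 10.73 to 11.78 (median 11.12) and CR mice at 11.52 to 12.59 (median 12.38). B6C3F1/J controls lay at 10.96 to 11.42 (median 11.24) and CR mice at 12.51 to 13.01 (median 12.81). In 129S1/SvImJ and B6C3F1/J every CR mouse was above every control mouse, and in C57BL/6J 7 of 8 were. C3H/HeJ controls had signals of 10.92 to 12.32 (median 11.51) against 11.97 to 12.91 (median 12.78) under CR. CBA/J controls had 11.35 to 12.42 (median 12.20) against 12.63 to 13.28 (median 13.08). DBA/2J controls had 11.48 to 12.23 (median 12.07) against 11.78 to 12.68 (median 12.42). The groups did not overlap in CBA/J, and 7 CR mice in C3H/HeJ and 6 in DBA/2J exceeded all their controls. BALB/cJ controls ran from 11.52 to 13.39 (median 11.97) and CR mice from 11.49 to 13.36 (median 12.97), the highest control being replicate 3. The difference was largest in B6C3F1/J, 1.56 (SE 0.08), and smallest in DBA/2J, 0.44 (SE 0.14). In BALB/cJ it was 0.64 (SE 0.27), and 0.82 (SE 0.24) without replicate 3, when its unadjusted p in limma crossed 0.01. Leaving out the highest control can only raise the difference. Without the arrays that stand apart the BALB/cJ difference was 0.59 (SE 0.29, unadjusted p = 0.056 in limma). The strains' Slc25a1 effects differed by the F-test (adjusted p = 0.00871), as did those of 15 of the 46 members (32.6%, where 19.0% of all genes did).

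Slc25a10, the dicarboxylate carrier, was higher by 1.03 (SE 0.06, adjusted p = 1.04e-26). Signals of 129S1/SvImJ control mice were 9.73 to 10.32 (median 9.87) and those of CR mice 10.99 to 11.85 (median 11.67). C57BL/6J controls reached 9.08 to 10.69 (median 10.16) and CR mice 10.71 to 11.84 (median 11.55). B6C3F1/J controls reached 10.56 to 11.02 (median 10.88) and CR mice 11.58 to 12.19 (median 12.05). In these 3 strains the diets did not overlap. C3H/HeJ controls spanned 10.28 to 11.44 (median 10.60) and CR mice 11.43 to 11.95 (median 11.88). CBA/J controls spanned 10.79 to 11.58 (median 11.02) and CR mice 11.19 to 12.09 (median 11.90). DBA/2J controls spanned 9.98 to 11.02 (median 10.63) and CR mice 10.94 to 11.50 (median 11.14). In each of the 3, 7 of 8 CR mice exceeded every control. BALB/cJ controls spanned 10.41 to 12 (median 10.88) and CR mice 10.51 to 12.09 (median 11.78), and 2 CR mice exceeded every control. Differences ran from 0.59 (SE 0.23) in BALB/cJ to 1.62 (SE 0.11) in 129S1/SvImJ and were not alike across strains (adjusted p = 0.00123). Control means ran from 9.93 in 129S1/SvImJ to 11.11 in CBA/J.

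Slc25a11, the oxoglutarate carrier, changed less, by 0.35 (SE 0.02, adjusted p = 2.18e-24), but was called in all 7 strains. Without the 22 arrays that stand apart its unadjusted p was 0.0157 in DBA/2J and 0.0116 in BALB/cJ, with differences of 0.34 and 0.25, so that 5 calls were left. Its control signals in 129S1/SvImJ were 10.16 to 10.47 (median 10.35) and its CR signals 10.50 to 10.87 (median 10.71). For C57BL/6J the values were 9.80 to 10.19 (median 10) and 10.43 to 10.97 (median 10.49). For B6C3F1/J they were 10.20 to 10.43 (median 10.35) and 10.53 to 10.79 (median 10.67). CR mice lay above every control in all 3 of these strains and in CBA/J, so that the diets were apart in 4 strains, which held for 0.421% of all genes. C3H/HeJ control and CR mice had 10.19 to 10.51 (median 10.27) and 10.49 to 10.71 (median 10.57). CBA/J mice had 10.28 to 10.57 (median 10.45) and 10.69 to 10.94 (median 10.80). DBA/2J mice had 10.15 to 10.77 (median 10.31) and 10.53 to 10.74 (median 10.66). No DBA/2J CR mouse exceeded its highest control. BALB/cJ mice had 10.23 to 10.62 (median 10.27) and 10.20 to 10.87 (median 10.64), 4 CR mice being above all controls. Its effects, 0.26 to 0.57, did not pass the F-test for strain differences (adjusted p = 0.0683). Slc25a21, the oxoadipate carrier, is among the dim members, and its difference of 0.19 (SE 0.12, adjusted p = 0.182) did not pass.

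The enzymes on either side of citrate export were given as a list of 12 measured genes. Of these 11 rose and 1 fell, with a median change of 0.56. The background was 21.9% and 22.0% of all genes, and 33.1% and 32.7% of the brighter genes. ATP citrate lyase, Acly, was higher by 2.21 (SE 0.13), acetyl-CoA synthetase Acss2 by 1.61 (SE 0.11), acetyl-CoA carboxylase Acaca by 1.30 (SE 0.09), malic enzyme Me1 by 1.21 (SE 0.08) and fatty acid synthase Fasn by 0.87 (SE 0.06). The member that fell was Idh2, the mitochondrial NADP isocitrate dehydrogenase, at -0.18 (SE 0.03). Slc25a1 and Slc25a10 thus had changes between those of Acss2 or Acaca and that of citrate synthase, Cs, at 0.51 (SE 0.04). Mpc1, a subunit of the pyruvate carrier, which belongs to another family, was higher by 0.70 (SE 0.06).

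The phosphate carrier Slc25a3 rose by 0.19 (SE 0.01, adjusted p = 7.9e-21), the smallest shift of the 8 members called in at least 6 strains, with small spread among mice. Mice of 129S1/SvImJ had 11.83 to 12.07 (median 12) on control food and 12.08 to 12.32 (median 12.24) under CR. Mice of C57BL/6J had 11.75 to 11.91 (median 11.84) and 11.86 to 12.15 (median 12.11). Mice of B6C3F1/J had 11.82 to 11.98 (median 11.93) and 12.09 to 12.24 (median 12.13). The diets were apart in 129S1/SvImJ, B6C3F1/J and C3H/HeJ and overlapped by 1 CR mouse in C57BL/6J. Mice of C3H/HeJ had 11.88 to 12.04 (median 11.97) and 12.08 to 12.17 (median 12.13). Mice of CBA/J had 11.88 to 12.08 (median 12) and 11.93 to 12.22 (median 12.17). Mice of DBA/2J had 11.82 to 12.09 (median 11.93) and 11.94 to 12.25 (median 12.10). CBA/J was the strain not called. Mice of BALB/cJ had 11.93 to 12.12 (median 12) and 12.03 to 12.33 (median 12.18), with 5 CR mice above every control. The strain differences spanned only 0.14 to 0.25 and did not pass the F-test (adjusted p = 0.537).

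The 9 adenine nucleotide carriers divided: 3 rose, 2 fell and 4 did not pass. Of all genes 21.9% rose and 22.0% fell, and of the brighter genes 33.1% and 32.7%. Slc25a4, the ADP/ATP carrier abundant in heart and muscle, was higher by 0.34 (SE 0.02, adjusted p = 4.25e-24) and was called in all 7 strains. Under control feeding its 129S1/SvImJ signals were 10.10 to 10.48 (median 10.29) and under CR 10.56 to 10.77 (median 10.69). The C57BL/6J signals were 10.02 to 10.32 (median 10.15) and 10.29 to 10.62 (median 10.56). The B6C3F1/J signals were 9.92 to 10.28 (median 10.08) and 10.44 to 10.63 (median 10.59). Diets were apart in 129S1/SvImJ and B6C3F1/J, and in the 4 strains C57BL/6J, C3H/HeJ, CBA/J and DBA/2J 7 of 8 CR mice exceeded every control. The C3H/HeJ signals were 9.86 to 10.34 (median 10.11) and 10.34 to 10.59 (median 10.38). The CBA/J signals were 10.06 to 10.29 (median 10.13) and 10.18 to 10.60 (median 10.46). The DBA/2J signals were 10.10 to 10.41 (median 10.31) and 10.23 to 10.73 (median 10.61). In BALB/cJ they were 10.03 to 10.52 (median 10.07) and 10.16 to 10.62 (median 10.38), where replicate 3 was again the highest control and 1 CR mouse exceeded it. Without the 22 arrays that stand apart Slc25a4 was called in 5 strains, with 0.19 (unadjusted p = 0.252) in DBA/2J and 0.22 (unadjusted p = 0.0134) in BALB/cJ. The differences over all arrays ran from 0.25 in BALB/cJ to 0.49 in B6C3F1/J.

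Slc25a5, the form of the ADP/ATP carrier found in most tissues, rose by 0.21 (SE 0.03, adjusted p = 3.99e-11) and was called in 4 strains. Its 3 probe sets gave 0.21, 0.21 and 0.21. Slc25a17, which carries coenzymes and adenine nucleotides in the peroxisome, rose by 0.32 (SE 0.03, adjusted p = 1.13e-15) and was called in 5 strains, with differences from 0.10 in DBA/2J to 0.48 in B6C3F1/J. Slc25a31, the testis form, was dim and did not pass, at 0.07 (SE 0.04, adjusted p = 0.162). Of the germ cell markers 5 of 8 were higher under CR averaged over strains (background 21.9% of all genes). The largest differences were in DBA/2J (Prm1 1.71, Smcp 1.37, Prm2 1.35). There CR replicates 2, 4, 5, 6 and 8 had a mean marker level of 6.84 to 8.48 against a median of 5.66 over all arrays. The level was not raised in these mice alone. Among other arrays with epididymis markers, DBA/2J control replicates 3 and 4 had 6.84 and 6.33. C57BL/6J CR replicate 2 had 7.205 and CBA/J CR replicate 5 had 6.78. In DBA/2J the Slc25a31 difference was -0.04 (SE 0.14).

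The ATP-Mg/phosphate carriers went down or did not pass. Slc25a25 fell by 0.35 (SE 0.04, adjusted p = 4.57e-13), with -0.70 (SE 0.07) in 129S1/SvImJ and -0.62 (SE 0.10) in C57BL/6J but -0.09 (SE 0.09) in B6C3F1/J and -0.05 (SE 0.09) in BALB/cJ. In 129S1/SvImJ its control signals, 8 to 8.48 (median 8.21), were all above the CR signals, 7.33 to 7.70 (median 7.49). Slc25a24 fell by 0.23 (SE 0.05, adjusted p = 5.33e-06), mostly in CBA/J at -0.67 (SE 0.12) and 129S1/SvImJ at -0.39 (SE 0.12), with 0.10 (SE 0.08) in C3H/HeJ. Both varied with strain (adjusted p = 0.00103 and 0.00929). Slc25a23 did not pass across strains, at 0.02 (SE 0.03, adjusted p = 0.671), but its effects differed between strains (adjusted p = 0.0456). Slc25a41 and Slc25a54 were dim, at 0.07 (SE 0.04, adjusted p = 0.147) and 0.07 (SE 0.05, adjusted p = 0.229). Of 15 measured subunits of ATP synthase, which Slc25a3, Slc25a4 and Slc25a5 feed, 14 rose and none fell. The background was 21.9% and 22.0% of all genes, and 33.1% and 32.7% of the brighter genes. The median change of the 15 subunits was 0.23.

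Slc25a20, the carnitine/acylcarnitine carrier, rose by 0.23 (SE 0.05, adjusted p = 6.25e-06) and was called in 3 strains. Signals in 129S1/SvImJ were 8.79 to 9.23 (median 9.02) in control and 9.05 to 9.68 (median 9.22) in CR mice. Signals in C57BL/6J were 8.46 to 8.99 (median 8.93) and 8.20 to 9.17 (median 9.03). Signals in B6C3F1/J were 8.58 to 8.97 (median 8.70) and 8.93 to 9.25 (median 9.06). The lowest C57BL/6J CR mouse, replicate 2, is one of the arrays with epididymis markers. Signals in C3H/HeJ were 8.70 to 9.47 (median 8.95) and 8.89 to 9.23 (median 9.05). Signals in CBA/J were 8.80 to 9.36 (median 9.25) and 9.14 to 9.76 (median 9.53). Signals in DBA/2J were 8.79 to 10.04 (median 9.03) and 9.28 to 9.73 (median 9.48). The groups overlapped in every strain, and in CBA/J 7 of 8 CR mice exceeded all controls. BALB/cJ signals were 8.98 to 10.24 (median 9.36) and 9.19 to 10.19 (median 9.72). The difference was largest in B6C3F1/J, 0.35 (SE 0.07), and smallest in C3H/HeJ, 0.06 (SE 0.10), and did not pass the F-test (adjusted p = 0.524). Of the 16 measured genes of the carnitine shuttle and β-oxidation, 10 rose and 2 fell, with a median change of 0.14. The background was 21.9% and 22.0% of all genes, and 33.1% and 32.7% of the brighter genes. Those that fell were Cpt1a, which loads fatty acids onto carnitine at the outer membrane, at -0.43 (SE 0.04), and Slc22a5, the carnitine carrier of the cell membrane, at -0.26 (SE 0.03). Cpt2, which unloads them inside, was higher by 0.23 (SE 0.04) and Acadvl, the first dehydrogenase for long chains, by 0.45 (SE 0.05). Slc25a20 and Cpt1a changed in opposite directions.

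**Figure D3:**
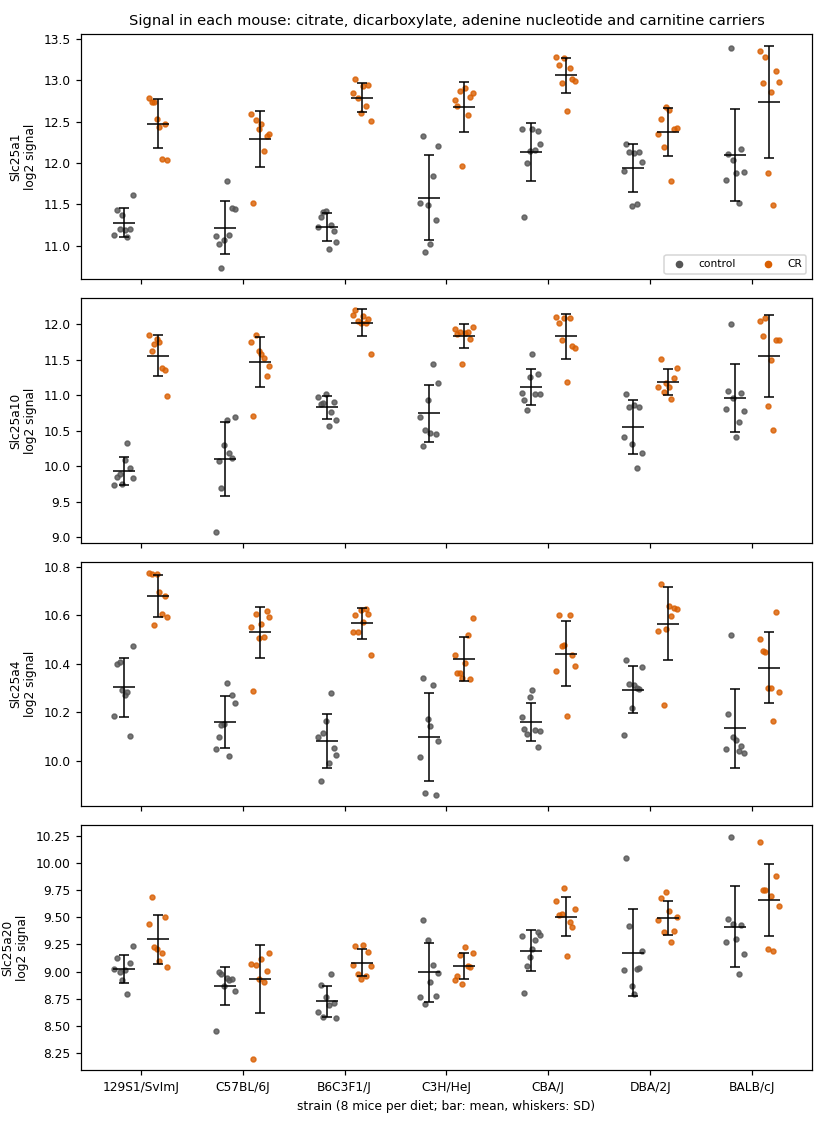
Log2 signal of Slc25a1, Slc25a10, Slc25a4 and Slc25a20 (y axes) in each of the 8 control (grey) and 8 CR (orange) mice of every strain (x axis), with the mean (bar) and SD (whiskers). CR means lie above control means in all 7 strains for the 4 genes, and the mice of both diets overlap in 4 strains for Slc25a1, in 4 for Slc25a10 and in every strain for Slc25a20.

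Of the 9 amino acid carriers 4 rose, 3 fell and 2 did not pass, with a median change of 0.07. Of all genes 21.9% rose and 22.0% fell, and of the brighter genes 33.1% and 32.7%. The risers were Slc25a44, which carries branched-chain amino acids, at 0.22 (SE 0.03, adjusted p = 1.64e-09), Slc25a38, which brings glycine in for haem synthesis, at 0.21 (SE 0.02, adjusted p = 1.42e-16), the ornithine carrier Slc25a15 at 0.11 (SE 0.04, adjusted p = 0.0362) and Slc25a29, which carries basic amino acids, at 0.08 (SE 0.03, adjusted p = 0.0262). The Slc25a15 difference was 0.13 without the 22 arrays that stand apart but no longer passed (adjusted p = 0.0572), and that of Slc25a29 was 0.07 without the arrays with epididymis markers (adjusted p = 0.0627). Slc25a44 was called in 129S1/SvImJ, B6C3F1/J and CBA/J, at 0.30, 0.40 and 0.28. Bcat2, which begins the breakdown of those amino acids in mitochondria, was higher by 0.42 (SE 0.04) and Bckdha by 0.30 (SE 0.04). Of 14 measured amino acid enzymes 6 rose and 3 fell (background 21.9% and 22.0% of all genes). Those that fell were Oat, Aldh18a1 and Alas1.

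Slc25a38 had the smallest F-test p of this group (adjusted p = 0.000824). Its C57BL/6J controls had signals of 8.41 to 8.59 (median 8.48) and CR mice 8.76 to 9.05 (median 8.92), which were apart, a difference of 0.43 (SE 0.05). Its BALB/cJ controls had 8.78 to 9.21 (median 8.93) and CR mice 8.92 to 9.03 (median 8.97), a difference of 0.02 (SE 0.06). Control means ran from 8.49 in C57BL/6J to 8.95 in BALB/cJ and CR means from 8.76 to 8.99. BALB/cJ minus the mean of the other 6 strains was -0.22 (SE 0.06, adjusted p = 0.0129), 1 of 3 members to pass that contrast (6.52%, where 3.25% of all genes did), with Slc25a29 at -0.31 (SE 0.09, adjusted p = 0.0319) and Slc25a43 below. Slc25a29 was called in CBA/J alone, at 0.33 (SE 0.07), and was -0.19 (SE 0.09) in BALB/cJ.

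Both aspartate/glutamate carriers of the malate-aspartate shuttle were lower across strains. Slc25a13, a dim member, fell by 0.45 (SE 0.09, adjusted p = 3.57e-06) and Slc25a12 fell by 0.11 (SE 0.04, adjusted p = 0.0144). For Slc25a13 the mice of a group were spread widely, with 129S1/SvImJ controls at 6.26 to 8.02 (median 7.10) and CR mice at 6 to 6.43 (median 6.22). B6C3F1/J controls were at 6.75 to 9.01 (median 7.07) and CR mice at 6.22 to 7.13 (median 6.41), so that the diets overlapped in both. Differences were -0.91 (SE 0.20) and -0.82 (SE 0.26) in these strains and -0.02 (SE 0.29) in C57BL/6J. Slc25a12 was called in 129S1/SvImJ, -0.31 (SE 0.06), where every CR mouse was below every control, and was 0.12 (SE 0.10) in BALB/cJ. Its call across strains was lost without 129S1/SvImJ (-0.08, adjusted p = 0.164) and without CBA/J (-0.10, adjusted p = 0.0661). Of the glutamate carriers, Slc25a18, also dim, fell by 0.12 (SE 0.03, adjusted p = 0.00104), whereas Slc25a22 did not pass, at 0.07 (SE 0.03, adjusted p = 0.107). Slc25a22 effects differed with strain (adjusted p = 0.0133), from -0.25 (SE 0.11) in C57BL/6J to 0.29 (SE 0.08) in CBA/J. Slc25a2, an ornithine carrier, was dim and did not pass, at 0.04 (SE 0.03, adjusted p = 0.301).

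In 5 pairs of related carriers the CR effects were set against each other within each mouse, by a two-sided permutation test of 100000 resamples of diet labels within strains, adjusted over the 5 pairs. Slc25a4 rose more than Slc25a5, by 0.13 (SE over strains 0.03, adjusted p = 2.5e-05), in 7 of 7 strains. Slc25a28, a mitoferrin whose own change was small, exceeded Slc25a37, the mitoferrin of red cell precursors, by 0.35 (SE 0.07, adjusted p = 2.5e-05), in 7 of 7 strains. These are the smallest values that 100000 resamples give for 2 pairs of 5. Slc25a12 exceeded Slc25a13 by 0.34 (SE 0.10, adjusted p = 3.33e-05) in 6 of 7 strains, and Slc25a22 exceeded Slc25a18 by 0.19 (SE 0.06, adjusted p = 0.000875) in 6 of 7. In each of these pairs the second carrier, Slc25a13 or Slc25a18, was dim. For all 5 pairs, the probe sets of both carriers may respond unequally to the same change in RNA, which was not tested. Slc25a24 exceeded Slc25a25 by 0.11 (SE 0.11, adjusted p = 0.0305) in only 4 of 7 strains, and this call was lost without the 22 arrays that stand apart (adjusted p = 0.328).

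**Figure D4:**
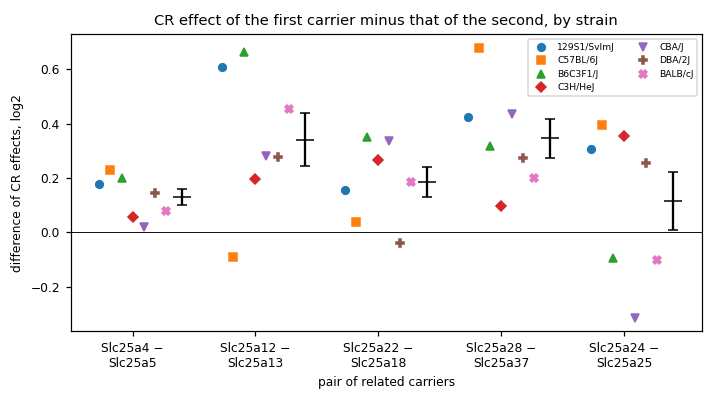
For each pair of related carriers (x axis), the CR effect of the first minus that of the second in each strain (symbols, log2, y axis), with the mean over 7 strains and its SE in black. All 7 strains lie above 0 for Slc25a4 minus Slc25a5 and for Slc25a28 minus Slc25a37, and 4 do for Slc25a24 minus Slc25a25.

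Among the 9 carriers of cofactors and nucleotides, none of them dim, 7 rose and 1 fell, with a median change of 0.20. The background was 21.9% and 22.0% of all genes, and 33.1% and 32.7% of the brighter genes. Slc25a33, which carries pyrimidine nucleotides, rose by 0.46 (SE 0.04, adjusted p = 5.88e-18). Slc25a33 in 129S1/SvImJ was 6.45 to 6.94 (median 6.66) in controls and 6.95 to 7.52 (median 7.26) under CR. For the C57BL/6J mice it was 6.19 to 6.78 (median 6.45) and 6.73 to 7.41 (median 7.23). For the B6C3F1/J mice it was 6.36 to 6.59 (median 6.47) and 6.87 to 7.37 (median 7.12). The diets were apart in 129S1/SvImJ and B6C3F1/J, and 1 C57BL/6J CR mouse overlapped with its controls. For C3H/HeJ mice it was 6.37 to 7.14 (median 6.65) and 6.92 to 7.43 (median 7). For CBA/J mice it was 6.35 to 6.95 (median 6.81) and 6.89 to 7.48 (median 7.23). For DBA/2J mice it was 6.44 to 7.27 (median 6.57) and 6.80 to 7.24 (median 7.13). CR means differed little between strains (7.06 to 7.23) and control means more (6.46 in C57BL/6J to 7.03 in BALB/cJ). BALB/cJ mice had 6.55 to 7.54 (median 7.03) and 6.60 to 7.54 (median 7.22), a difference of 0.14 (SE 0.15) against 0.73 (SE 0.09) in C57BL/6J. The strains differed by the F-test (adjusted p = 0.0218).

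The other risers of this group were Slc25a39 (glutathione) at 0.32, Slc25a32 (folate and FAD) at 0.30, Slc25a51 (NAD) at 0.25, Slc25a16 at 0.20, Slc25a26 (S-adenosylmethionine) at 0.19 and Slc25a36 (pyrimidine nucleotides) at 0.06. The second Slc25a36 probe set gave -0.0044 (adjusted p = 0.885), so its rise rests on the brighter probe set, and it was lost without the 22 arrays that stand apart (adjusted p = 0.164). Slc25a40, related to Slc25a39, did not pass, at 0.04. The Slc25a39 effect differed between strains (adjusted p = 0.0405).

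Slc25a42, the coenzyme A carrier, was the member that fell in this group, by 0.34 (SE 0.03, adjusted p = 1.15e-18). Its signals in 129S1/SvImJ mice were 9.53 to 9.93 (median 9.73) in controls and 9.02 to 9.45 (median 9.25) under CR. C57BL/6J mice showed 8.74 to 9.28 (median 8.86) and 8.38 to 8.85 (median 8.50). B6C3F1/J mice showed 9.19 to 9.41 (median 9.29) and 8.72 to 9.29 (median 8.88). Every CR mouse was below every control in 129S1/SvImJ and C3H/HeJ. C3H/HeJ mice showed 9.59 to 10.07 (median 9.75) and 9.22 to 9.36 (median 9.30). CBA/J mice showed 9.46 to 9.77 (median 9.65) and 9.27 to 9.65 (median 9.45). DBA/2J mice showed 9.50 to 10.18 (median 9.71) and 9.19 to 9.73 (median 9.43). In CBA/J, DBA/2J and BALB/cJ 5 of 8 CR mice were below all controls. BALB/cJ mice showed 9.76 to 10.15 (median 9.89) and 9.31 to 9.92 (median 9.69). Differences ran from -0.49 in C3H/HeJ to -0.20 in CBA/J and did not pass the F-test (adjusted p = 0.171). Without the arrays with epididymis markers the CBA/J difference was -0.12 (unadjusted p = 0.0683) and that of C57BL/6J -0.27 (unadjusted p = 0.0106), which left Slc25a42 called in 4 strains. Control means of C57BL/6J (8.90) and BALB/cJ (9.91) were further apart than the diets of any strain, and control levels differed between strains for 36 of the 46 members (78.3%, where 58.8% of all genes did).

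Of the iron carriers, Slc25a37 fell by 0.31 (SE 0.03, adjusted p = 1.84e-13) and Slc25a28 rose by 0.04 (SE 0.02, adjusted p = 0.046), a call lost without the arrays that hold epididymis markers (adjusted p = 0.0811). Slc25a37 was called in 4 strains, with -0.63 (SE 0.11) in C57BL/6J and -0.14 (SE 0.07) in C3H/HeJ (F-test adjusted p = 0.0146). None of the 3 measured red blood cell markers passed the test averaged over strains. The effects of Alas2 and Slc4a1 differed between strains (F-test adjusted p = 0.0392 and 0.0217), while those of Epb42 did not pass (0.143). Alas2 ran from -0.62 in 129S1/SvImJ and -0.52 in C57BL/6J to 0.24 in C3H/HeJ. The part of red cells in the Slc25a37 differences was not tested. Of the uncoupling-like carriers Slc25a30 fell by 0.37 (SE 0.05, adjusted p = 4.2e-11) and Slc25a14 and Slc25a27 did not pass, at 0.04 and -0.01. Family members with other symbols were Mtch2, at 0.65 (SE 0.05), Mtch1, at 0.14 (SE 0.03), Ucp1, the uncoupling protein of brown fat, at 0.61 (SE 0.15), and Ucp3, at -0.20 (SE 0.05). Of 8 brown and beige fat markers, Ucp1 among them, 6 rose (background 21.9% of all genes).

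The 8 members with another or no assigned substrate held the single largest rise. Slc25a35, whose substrate is not settled, rose by 1.05 (SE 0.06, adjusted p = 2.87e-31). The 129S1/SvImJ mice had 9.49 to 9.91 (median 9.66) on control food and 10.66 to 11.44 (median 11.22) under CR. The C57BL/6J mice had 9.63 to 10.04 (median 9.82) and 10.34 to 11.24 (median 11.03). The B6C3F1/J mice had 9.68 to 10.01 (median 9.94) and 11 to 11.55 (median 11.35). The diets were apart in these 3 strains, in C3H/HeJ and in CBA/J, thus in 5 strains, as for 0.0552% of all genes. The C3H/HeJ mice had 9.54 to 10.62 (median 10.16) and 11.03 to 11.41 (median 11.27). The CBA/J mice had 9.71 to 10.72 (median 10.50) and 11.03 to 11.76 (median 11.54). The DBA/2J mice had 9.78 to 10.71 (median 10.12) and 10.45 to 10.77 (median 10.58). In DBA/2J 2 CR mice exceeded every control. The BALB/cJ mice had 10.13 to 11.55 (median 10.35) and 10.05 to 11.72 (median 11.24), the highest control being replicate 3. Differences ran from 0.41 (SE 0.12) in DBA/2J to 1.48 (SE 0.10) in 129S1/SvImJ (F-test adjusted p = 6.41e-05). In BALB/cJ the difference was 0.62 (SE 0.23). It was 0.78 (SE 0.20) without replicate 3, the highest control, and 0.60 (SE 0.25) without the arrays that stand apart.

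Slc25a48 rose by 0.62 (SE 0.06, adjusted p = 1.82e-16) and was called in 5 strains, at 1.01 (SE 0.16) in CBA/J and 0.25 (SE 0.10) in C57BL/6J, where it was not called. Slc25a43 fell by 0.38 (SE 0.04, adjusted p = 4.86e-17) and had the smallest F-test p of the family (adjusted p = 3.78e-07). CBA/J controls had Slc25a43 signals of 7.17 to 7.91 (median 7.34) and CR mice 6.49 to 6.79 (median 6.59). B6C3F1/J controls had 7.18 to 7.95 (median 7.36) and CR mice 6.61 to 6.81 (median 6.72). BALB/cJ controls had 6.43 to 7.15 (median 6.78) and CR mice 6.51 to 6.95 (median 6.78). The diets were apart in CBA/J and B6C3F1/J, at -0.82 (SE 0.09) and -0.77 (SE 0.10), and overlapped in BALB/cJ, at -0.03 (SE 0.10). The contrast of BALB/cJ with the other 6 strains was 0.41 (SE 0.10, adjusted p = 0.00615). The 7 CR means of Slc25a43 lay within 0.18 of each other and its control means within 0.71. These CR means, 6.61 to 6.79, were near the signal of the median probe set (6.77). Whether so low a signal narrows their spread was not tested.

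Slc25a45, which fell by 0.20 (SE 0.03, adjusted p = 5.26e-11), had a like arrangement, with -0.37 (SE 0.05) in B6C3F1/J and -0.01 (SE 0.05) in 129S1/SvImJ (F-test adjusted p = 0.0041). Slc25a47, most abundant in liver, fell by 0.20 (SE 0.07, adjusted p = 0.0128), with -0.63 (SE 0.15) in 129S1/SvImJ and 0.37 (SE 0.16) in C3H/HeJ (F-test adjusted p = 0.0314), and its call was lost without the 22 arrays (adjusted p = 0.199). The SD of the 7 strain means was less than 50% as large under CR as in controls for 4 members, Slc25a33, Slc25a43, Slc25a45 and Slc25a47 (8.7%, where 4.93% of all genes did); it was smaller under CR for 22 of the 46 (47.8%) and for 47.1% of all genes. Slc25a46, an outer-membrane protein, rose by 0.18 (SE 0.02, adjusted p = 1.69e-11), and Slc25a34 and Slc25a53 did not pass, at -0.04 and 0.02.

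**Figure D5:**
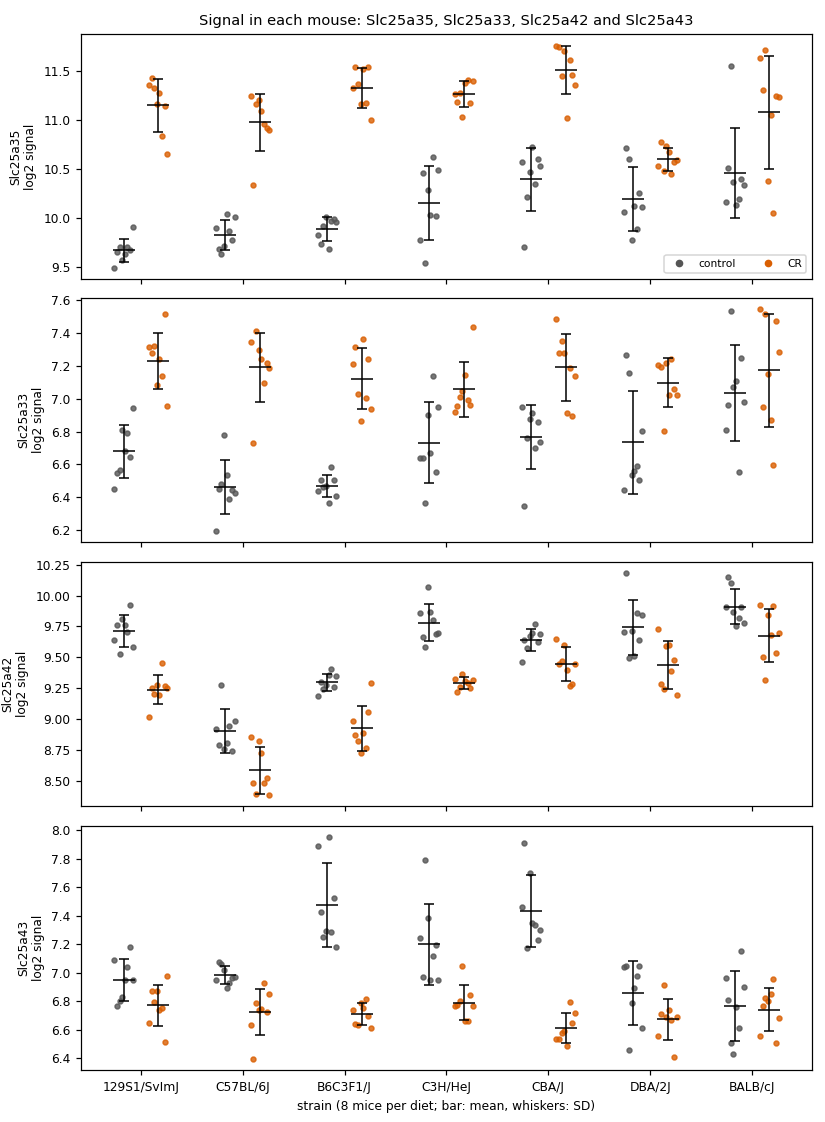
Log2 signal of Slc25a35, Slc25a33, Slc25a42 and Slc25a43 (y axes) in each control (grey) and CR (orange) mouse of every strain (x axis), with the mean (bar) and SD (whiskers) of 8 mice. Slc25a43 CR means lie between 6.61 and 6.79 while control means run from 6.77 to 7.47, and Slc25a42 CR means lie below the control mean in all 7 strains.

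Of the 46 members 33 (71.7%, where 54.2% of all genes did) had a smaller difference in BALB/cJ, in either direction, than the average strain of the remaining 6. Slc25a29, 1 of the 3 that passed the contrast, was not among them, since its BALB/cJ difference was the larger one. Without the 9 arrays with epididymis markers 8 members passed that contrast (4.89% of all genes). BALB/cJ mice were fed by another scheme, so strain and food allotment cannot be told apart. Other genes of mitochondrial transport moved mostly upward, 9 of 11 measured with 1 lower. Of 13 measured genes of mitochondrial content 11 rose with none lower, at a median of 0.27. The background for both lists was 21.9% of all genes higher and 22.0% lower, and 33.1% and 32.7% of the brighter genes.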

How the data were processed

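RNA of epididymal WAT from 112 male mice was hybridised to Affymetrix mouse Gene 1.0 ST arrays. The authors deposited log2 signals per probe set, made in Affymetrix Expression Console by RMA-Sketch at gene level (per the labels and the study's methods), background-corrected and quantile-normalized over arrays, which can hide a shift shared by most genes. The values give no counts, so precision depends on how many arrays there are. Of 35556 probe sets, 21789 name 1 gene in GEO's platform annotation; the brightest probe set of each of 19938 genes was used. Groups follow the labels. Differences were fitted with limma 3.58.1 (R 4.3.3): 14 groups for the mean of 7 strain differences, the F-test of strain differences and the BALB/cJ contrast, 16 arrays for each strain, 56 control arrays for control levels, with Benjamini-Hochberg adjustment over all genes, tested on simulated data. Members and lists were chosen with earlier results of these data known. Members of the citrate and dicarboxylate, phosphate, adenine nucleotide, carnitine and amino acid groups are named throughout; of the others, those called in 5 or more strains and the 3 with the smallest F-test p are described by strain. Per-mouse values are given for members called in at least 6 strains and Slc25a20. Mice with the same replicate number were treated as unpaired. Of 56 same-numbered pairs 18 correlated above 0.1 (median 0.026, highest 0.55). Differently numbered pairs were not compared, so these values cannot decide whether the numbers pair mice. Alternatives were quantile normalization, median centring, a filter on dim genes, the mean of probe sets, array weights, trended and robust variances, the tests the methods name, a replicate block, 1 model of all arrays, and leaving out arrays or strains. Further lists counted 6 endothelial (3 lower), 7 fibroblast (6 lower), 6 mesothelial (1 higher, 1 lower), 11 epididymal (2 higher), 8 muscle (1 lower), 6 lymphocyte (1 lower) and 9 adipocyte markers (1 higher, 3 lower). Of all genes 21.9% were higher and 22.0% lower. Protein sequences were not used here.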

Additional observations from a re-analysis of the deposited data

Results flagged for a closer look

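Among 126 sets of 8 mice (9 members in 14 groups), 25 held a mouse set apart from the other 7 by a gap beyond Dixon's limit, as a share of the group's range, while chance gives about 1 in 20. Many were the same mice. BALB/cJ control replicate 3 was the highest of its group for Slc25a1 (gap 0.649 of the range), Slc25a10 (0.591), Slc25a11 (0.572), Slc25a35 (0.732), Slc25a4 (0.668) and Slc25a20 (0.604). C57BL/6J CR replicate 2, an array with epididymis markers, was the lowest for Slc25a1 (0.579), Slc25a3 (0.556), Slc25a33 (0.537), Slc25a35 (0.622), Slc25a4 (0.659) and Slc25a20 (0.725) and the highest for Slc25a11 (0.716). CBA/J CR replicate 5, which also held epididymis markers, was the lowest for Slc25a3 (0.555).

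The remaining gaps were spread over other mice. C3H/HeJ CR replicate 4 was low for Slc25a1 (0.653) and Slc25a10 (0.684), and CBA/J control replicate 2 for Slc25a1 (0.605) and Slc25a33 (0.585). B6C3F1/J CR held a low mouse for Slc25a10 (0.705) and a high one for Slc25a3 (0.671). A 129S1/SvImJ control was low for Slc25a3 (0.629), a C3H/HeJ CR mouse high for Slc25a33 (0.56), a DBA/2J CR mouse low for Slc25a4 (0.616), a C57BL/6J control high for Slc25a42 (0.55) and another low for Slc25a20 (0.67).

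For 15 members limma's F-test found CR effects that were not equal in the strains. Adjusted p was 3.78e-07 for Slc25a43, 6.41e-05 for Slc25a35, 0.000824 for Slc25a38, 0.00103 for Slc25a25, 0.00123 for Slc25a10, 0.0041 for Slc25a45, 0.00871 for Slc25a1 and 0.00929 for Slc25a24. It was 0.0133 for Slc25a22, 0.0146 for Slc25a37, 0.0218 for Slc25a33, 0.0314 for Slc25a47, 0.0332 for Slc25a29, 0.0405 for Slc25a39 and 0.0456 for Slc25a23. BALB/cJ minus the other strains passed the limma test for Slc25a43 (0.41), Slc25a29 (-0.31) and Slc25a38 (-0.22).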

How the results depend on the processing

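Of the 34 members called across strains, 28 kept their call under every alternative in which they were tested, leaving out any strain included. The filter on dim genes removed Slc25a13 and Slc25a18, which are among these 28. Slc25a12, Slc25a15, Slc25a28, Slc25a29, Slc25a36 and Slc25a47, all with changes of 0.20 or less, lost it under some, and Slc25a22, Slc25a40, Slc25a41 and Slc25a54 gained one under some. Only members that did not pass turned sign: Slc25a23 (-0.0043 with quantile normalization, -0.0158 without C57BL/6J), Slc25a27 (0.0012 with quantile normalization, 0.0043 with median centring, 0.014 without 129S1/SvImJ) and Slc25a53 (-0.012 without 129S1/SvImJ). Counts within C57BL/6J, DBA/2J and BALB/cJ moved most. In C57BL/6J 18 members were higher with array weights, without the arrays that stand apart and without those with epididymis markers, and 8 were lower with array weights. DBA/2J had 16 higher with array weights and 2 without the arrays that stand apart. It had 0 lower with the methods' test, with the replicate block and without the arrays that stand apart, 2 with array weights or without epididymis arrays and 3 in 1 model of all arrays. BALB/cJ had 9 higher with array weights, 8 with the replicate block, 10 in 1 model of all arrays and 0 without the arrays that stand apart; with 1 mouse left out it had 0 to 10 higher and 1 to 3 lower. It had 1 lower with the methods' test, 4 with quantile normalization and 5 with array weights. The replicate block, which left 23 higher and 11 lower across strains, gave 3 lower in C57BL/6J; apart from this count, the 8 higher in BALB/cJ and the 0 lower in DBA/2J, it moved no count within a strain by over 1.5 times. The members called in at least 6 strains were 15 with array weights, 13 in 1 model of all arrays and 2 without the arrays that stand apart. With array weights 25 members differed between strains. The BALB/cJ contrast passed for 5 members with the filter on dim genes or array weights, 6 without the arrays that stand apart and 8 without epididymis arrays. The pair Slc25a24 and Slc25a25 gave 0.0684 (adjusted p = 0.328) without the arrays that stand apart. The cause was not tested for any of these. Centring on medians moved the share of calls that are higher, over all genes, from 49.8% to 57.5%. Leaving out the 22 arrays leaves CBA/J CR and DBA/2J control with 2 mice each.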
